A study of Mus musculus with 24 samples.

Results

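Interferon and MHC class I genes were measured in brain endothelial cells of mice with and without the circadian clock gene Bmal1. The genes were H2-K1, H2-D1, B2m, Tap1, Psmb8, Psmb9, Ifit1, Ifit3 and Isg15, picked out by their symbols, which makes 9 of the 53465 genes listed. All 9 passed the filter on low reads that left 15493 genes for testing. CD31-positive cells were sorted, after enzymatic digestion and myelin removal, from the brains of single C57BL/6J mice, and total RNA was sequenced from 12 Bmal1fl/fl control mice, in which the floxed gene is intact, and from 12 Bmal1fl/fl; Tie2cre mutant mice. Both groups carried the floxed Bmal1 (listed as Arntl) and differed in the Tie2-driven Cre, a promoter that is active in endothelium and also in blood cell lineages. Brains were taken at 6 times of day (zeitgeber times ZT2, ZT6, ZT10, ZT14, ZT18 and ZT22, in hours after lights on), from 2 mice per genotype and time, and each library is 1 mouse. The mice had free access to food under 12 h of light and 12 h of dark, their age is not given in the labels, and either of 2 sorters was used, without a record per mouse.

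MHC class I molecules show peptides from inside a cell to CD8+ T cells. H2-K1 and H2-D1 encode the classical heavy chains, and B2m encodes β2-microglobulin, the light chain that a heavy chain needs to reach the cell surface. Psmb8 and Psmb9 are catalytic subunits of the immunoproteasome, which cuts proteins into peptides that suit class I molecules, and they take the places of the constitutive subunits Psmb5 and Psmb6. Tap1 forms, with Tap2, the transporter that moves these peptides into the endoplasmic reticulum. Ifit1, Ifit3 and Isg15 are antiviral genes: Ifit1 and Ifit3 encode proteins with tetratricopeptide repeats that act on viral RNA and its translation, and Isg15 encodes a ubiquitin-like protein. Type I interferon binds the receptor made of Ifnar1 and Ifnar2 and acts through the kinases Jak1 and Tyk2 on interferon-stimulated response elements, and interferon-γ acts through a receptor and sites of its own. Both raise class I genes in most cell types. Endothelial cells of the brain carry class I molecules on their surface.

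The bases upstream of the start sites are shown for the genes in which letters of an interferon response element were found. Sequences and start sites are from RefSeq on GRCm38.p6, and all 9 genes had an entry. In the 250 bases before the start, the motif GAAANNGAAA, the core of an interferon-stimulated response element, was searched on both strands. It was found in Ifit1, Ifit3, Isg15 and B2m, 4 of the 9 genes, against 2.98% of 32851 promoter windows of the same length. The 200 bases before the start of each are printed 5′ to 3′ along the gene, with the matches in capitals (on the other strand the motif reads TTTCNNTTTC):
Ifit1, chr19:34640689-34640888, plus strand: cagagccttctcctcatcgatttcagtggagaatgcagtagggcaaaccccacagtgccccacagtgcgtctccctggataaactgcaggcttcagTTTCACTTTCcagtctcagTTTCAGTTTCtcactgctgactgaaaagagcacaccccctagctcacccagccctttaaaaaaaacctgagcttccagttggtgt
Ifit3, chr19:34583329-34583528, plus strand: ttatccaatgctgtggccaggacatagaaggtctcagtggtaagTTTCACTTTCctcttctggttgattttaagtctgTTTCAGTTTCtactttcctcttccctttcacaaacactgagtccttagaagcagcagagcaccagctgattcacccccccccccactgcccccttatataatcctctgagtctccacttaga
Isg15, chr4:156200819-156201018, minus strand: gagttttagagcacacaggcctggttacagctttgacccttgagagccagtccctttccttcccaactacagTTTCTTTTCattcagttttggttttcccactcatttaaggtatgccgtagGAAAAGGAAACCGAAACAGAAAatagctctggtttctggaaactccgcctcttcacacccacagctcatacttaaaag
B2m, chr2:122147487-122147686, plus strand: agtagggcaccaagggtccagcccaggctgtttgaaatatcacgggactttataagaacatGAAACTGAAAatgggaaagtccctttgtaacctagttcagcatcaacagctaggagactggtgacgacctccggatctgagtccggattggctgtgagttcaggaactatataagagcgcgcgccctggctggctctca
Ifit1 held matches at -104 and -85 and Ifit3 at -156 and -122 (first base of each match, counted back from the start). Isg15 held 3 overlapping matches, from -78, -72 and -66, and B2m held 1 at -139. In Isg15 a stretch at -128 is also in capitals because it matches a shorter form, GAANNGAAA. The shorter form occurs in 6.31% of the windows, and neither form contains the other.

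H2-K1 and H2-D1 lacked the longer motif but each held the shorter form. The 30 bases around it are given to show that the 2 heavy chain genes share the site:
H2-K1, chr17:34000418-34000447, minus strand: atctccacagTTTCACTTCtgcacctaacc
H2-D1, chr17:35262934-35262963, plus strand: atctcctcagTTTCACTTCtgcacctaacc
The H2-D1 site lies before the RefSeq start but inside the gene by its coordinates in the GENCODE annotation. The stretches before the RefSeq starts of the 2 genes matched at 127 of 140 bases (90.7%) when laid side by side without gaps. The corresponding comparison of Ifit1 with Ifit3 gave 69 of 198 bases (34.8%), although both hold a pair of response elements. Tap1 and Psmb9, which lie head to head and share 212 bases in the GENCODE annotation, held neither form in their windows, and nor did Psmb8. The windows of H2-D1, Psmb8 and Psmb9 lie inside these genes by the GENCODE coordinates given below. The bases before the GENCODE starts of these genes were therefore not searched. The E-box CACGTG, which clock proteins bind, was in 0 of the 9 windows and in 6.02% of all windows. Among other interferon-stimulated genes, 17 of the 42 with an entry held GAAANNGAAA, and among other class I heavy chain genes 2 of 11 held it. The shorter form was in 9 of these 42 and in 6 of these 11 genes. Of 10 other peptide loading and processing genes with an entry, 0 held either form. A match describes letters in this window only.

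The libraries held 6136404 to 6648311 normalised reads each. Gene totals of Arntl do not test the deletion, because the floxed part is not counted apart: they were 1 to 468 reads (median 166.5) in controls and 81 to 354 (median 242.5) in mutants. The clock output gene Nr1d1 fell by 2.26 on the log2 scale in the mutants (SE 0.34, edgeR adjusted p = 0.000659). Endothelial markers made up the sorted cells' most abundant marker set, with 80039 to 130125 summed reads on 12 genes, and reads of lymphocyte and granulocyte markers were at most 143. The 8 libraries of ZT6 and ZT18 mice, which carry consecutive numbers of their own, stood apart in both genotypes. Their 11 microglial markers summed to 1244 to 2055 reads, against 11210 to 29877 in the other 16 libraries. No other time point has libraries of that number series, so series and time cannot be told apart. One control mouse at ZT10 (replicate 1) also stood apart: it had the highest sums of lymphocyte and granulocyte markers (143 reads, against 0 to 16 in the other libraries) and of MHC class II genes (2360 reads, against 20 to 782). This mouse had the highest reads of H2-K1, H2-D1, B2m and Psmb8, and results that rest on it are given with and without it. In sorted bulk cells, fewer cells of a type and less RNA per cell cannot be told apart.

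The class I molecule itself was abundantly transcribed. Levels were compared between genes as normalised reads per kb of exon, with exon lengths from the GENCODE annotation of GRCm38. The length of a gene is the union of the exons of all its annotated transcripts, which can exceed that of any 1 transcript. Orders and ratios between genes per kb therefore depend on these lengths. B2m (chr2:122147686-122153083, plus strand) had the highest level, 3029 ± 568 reads per kb (SD, n = 24 mice). H2-D1 (chr17:35262730-35267499, plus strand) had 1061 ± 235 and H2-K1 (chr17:33996017-34000347, minus strand) had 730.1 ± 181 reads per kb. This order of B2m over H2-D1 over H2-K1 held in each of the 24 mice. Per kb, B2m was 3.90-fold H2-K1 in the median mouse (range 3.22 to 6.29), and H2-K1 was 0.672-fold H2-D1 (range 0.562 to 0.892).

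Per kb of exon, the antiviral genes lay below the heavy chains and the processing genes lower still. The exon lengths were 5476 bases for Tap1, 3660 for Psmb9 and 3381 for Psmb8. They were 2656 for Ifit1, 1745 for Ifit3 and 756 for Isg15. By mean reads without division by length, Isg15 (129) lay below Psmb8 (286) and Tap1 (235), while Ifit1 (446) and Ifit3 (345.5) lay above them. The order of the antiviral and processing genes thus depended in part on the lengths used. Ifit3 (chr19:34583531-34588731, plus strand) had 198 ± 86.1, Isg15 (chr4:156199424-156200818, minus strand) 170.4 ± 57.8 and Ifit1 (chr19:34640871-34650009, plus strand) 168 ± 46.3 reads per kb. These 3 could not be ordered: Ifit3 was above Isg15 in 14 of 24 mice, and Isg15 was above Ifit1 in 13 of 24. Psmb8 (chr17:34197721-34201454, plus strand) had 84.6 ± 21.2 reads per kb, below Ifit1 in all 24 mice. Tap1 (chr17:34187553-34197225, plus strand) followed with 42.9 ± 14.8, below Psmb8 in all 24 mice. Psmb9 (chr17:34181987-34187764, minus strand) was lowest with 22.4 ± 6.84 and lay below Tap1 in 23 of 24 mice.

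**Figure D1:**
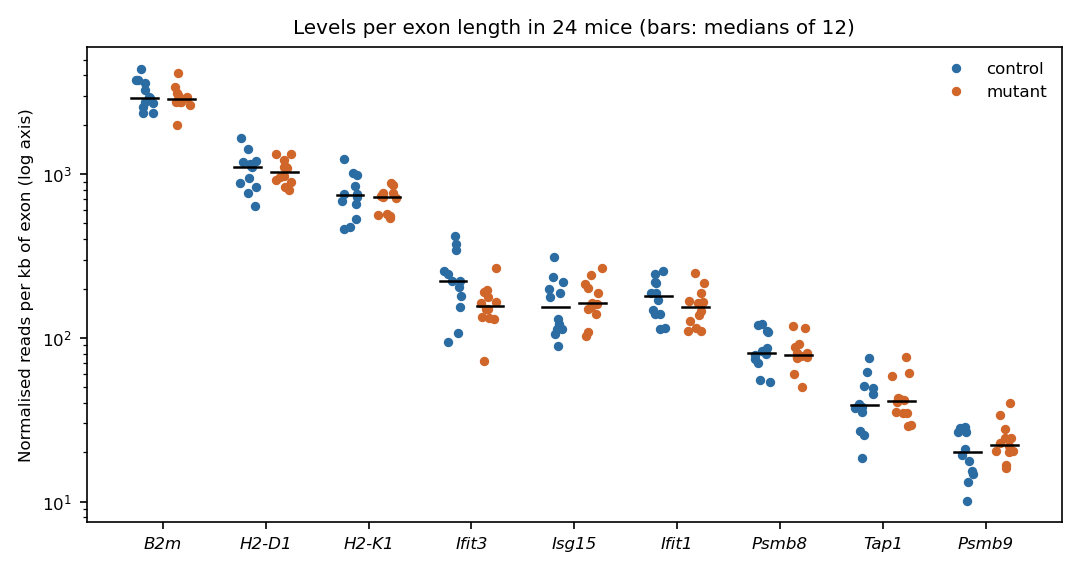
Normalised reads per kb of exon (log axis) of the 9 genes, ordered by their mean, with 1 point for each of 12 control and 12 mutant mice and bars at the medians. B2m, H2-D1 and H2-K1 lie above the other 6 genes, and the points of Ifit3, Isg15 and Ifit1 overlap.

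Both inducible proteasome subunits were read beside the constitutive subunits they replace. Per kb, Psmb8 was 0.695-fold Psmb5 in the median mouse (range 0.323 to 2.30) and was above it in 4 of 24 mice. Psmb9 stayed below Psmb6 in all 24 mice, with a median ratio of 0.169 (range 0.0591 to 0.281). For comparison, the third inducible subunit Psmb10 was 1.42-fold Psmb7 and above it in 19 of 24 mice. Tap1 was below its partner Tap2 in every mouse, at a median ratio of 0.381 (range 0.213 to 0.678). By mean reads without division by length, Psmb8 was above Psmb5 (286 against 109.5) and Psmb10 below Psmb7 (146 against 215). The order within both of these pairs thus depended on the lengths used. Psmb9 was below Psmb6 (82.0 against 254) and Tap1 below Tap2 (235 against 403) by mean reads too.

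The genes differed in how widely they varied between mice. The coefficient of variation over the 24 mice was 18.7% for B2m, 22.1% for H2-D1, 24.7% for H2-K1, 25.1% for Psmb8, 27.5% for Ifit1, 30.5% for Psmb9, 33.9% for Isg15, 34.6% for Tap1 and 43.5% for Ifit3. Counting error at the mean reads would give 1.91% for H2-D1, 5.38% for Ifit3 and 8.81% for Isg15. Psmb9 had the fewest reads of the 9, 37 to 146. Ifit3 spanned 126 to 732 reads, a 5.81-fold range, and B2m 1724 to 3787 reads, a 2.20-fold range.

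The first comparison asked whether deletion of Bmal1 in Tie2-expressing cells changed these genes over the whole day. None of the 9 genes passed the threshold between genotypes, and the estimates of 8 of them lay within 0.22 of 0 on the log2 scale. The exception was Ifit3, whose estimate was lower in the mutants. edgeR's quasi-likelihood test with time point as a factor called 42 of the 15493 genes at an adjusted p under 0.05, a background of 0.271%. At an unadjusted p under 0.05 it gave 1 of the 9 genes and 1077 of all genes, and DESeq2 called 0 of the 9 and 99 genes in all.

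Ifit3 had 164 to 732 reads in control mice (median 386.5) and 126 to 466 in mutant mice (median 273.5), so that the groups overlapped. From ZT2 to ZT22, the pairs of control mice had 387 and 386, 732 and 447, 653 and 313, 359 and 271, 601 and 427, then 187 and 164 reads. The pairs of mutant mice had, in the same order, 466 and 234, 288 and 330, 260 and 344, 228 and 126, 310 and 286, then 261 and 232 reads. At ZT6, ZT14 and ZT18 both mutants lay below both controls, and at ZT22 both lay above; the mutant mean was lower at 5 of 6 times. The fold change was 0.712 (log2 fold change -0.49, SE 0.16, 95% interval -0.82 to -0.16), with p = 0.00464 before and 0.36 after adjustment. An exact permutation of the genotypes within time points (2-sided) gave an unadjusted p = 0.0201. In the 8 ZT6 and ZT18 libraries the log2 fold change was -0.84 (edgeR adjusted p = 0.117), and in the other 16 it was -0.31 (adjusted p = 0.93); whether these differ was not tested. Without the control ZT10 mouse that stood apart it was -0.41. Only when no genes were left out for low reads did Ifit3 pass, with an edgeR adjusted p of 0.0153, a setting that called 141 genes in all. Ifit3b, its near-identical neighbour on chromosome 19 with which reads may be shared, had a log2 fold change of -0.61 (SE 0.25, edgeR adjusted p = 0.55).

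The estimates of the other antiviral genes were nearer to 0. Ifit1 had 299 to 675 reads (median 476) in controls and 293 to 663 (median 411) in mutants. Its log2 fold change was -0.14 (95% interval -0.42 to 0.13, edgeR adjusted p = 0.90). Isg15 had 67 to 236 reads (median 116) in controls and 78 to 201 (median 122.5) in mutants. Its log2 fold change was 0.08 (95% interval -0.32 to 0.48, edgeR adjusted p = 0.98), and the groups overlapped in both genes.

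The heavy and light chains had the narrowest intervals. H2-K1 had 1359 to 3612 reads in controls (median 2173.5) and 1579 to 2589 in mutants (median 2141.5), with a log2 fold change of -0.10 (95% interval -0.32 to 0.13). Without the control ZT10 mouse, the estimates for H2-K1, H2-D1 and B2m were -0.01, 0.06 and -0.02. H2-D1 had 1640 to 4299 reads in controls (median 2865.5) and 2075 to 3431 in mutants (median 2672), with a log2 fold change of -0.03 (95% interval -0.23 to 0.18). B2m had 2032 to 3787 reads in controls (median 2517.5) and 1724 to 3574 in mutants (median 2476), with a log2 fold change of -0.08 (95% interval -0.28 to 0.11). In all 3 genes the mutants lay inside the range of the controls, apart from 1 mutant mouse with 1724 reads of B2m.

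Among the processing genes, Tap1 had 101 to 411 reads in controls (median 211.5) and 158 to 418 in mutants (median 225), with a log2 fold change of 0.09 (95% interval -0.24 to 0.41). Psmb8 had 181 to 412 reads in controls (median 275) and 169 to 400 in mutants (median 266), with a log2 fold change of -0.05 (95% interval -0.30 to 0.19). Psmb9 had 37 to 105 reads in controls (median 73.5) and 59 to 146 in mutants (median 81.5), with a log2 fold change of 0.22 (95% interval -0.21 to 0.64). Psmb9, the gene with the fewest reads, thus had the widest interval. In the GENCODE annotation Tap1 and Psmb9 overlap by 212 bases at their starts on opposite strands. The sources used here do not say whether counting used the strand.

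**Figure D2:**
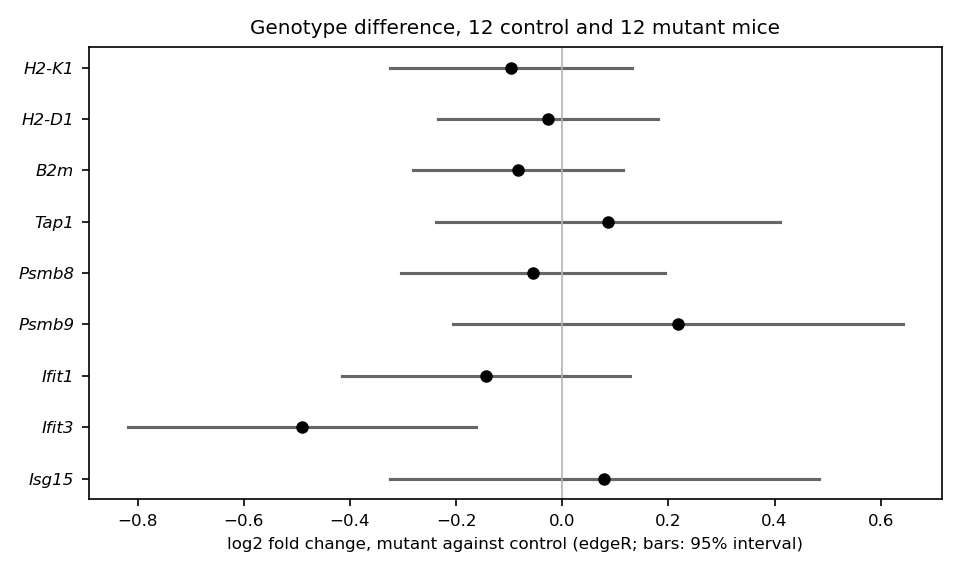
Log2 fold change of the 9 genes in 12 mutant against 12 control mice (edgeR, horizontal axis), with bars for the 95% interval. The bar of Ifit3 (-0.82 to -0.16) lies below 0 and the other 8 cross 0; with adjustment over 15493 genes, 0 of the 9 passed.

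Wider lists of the same pathway held no called gene either. Across the 56 other interferon-stimulated genes tested, 0 passed the adjusted threshold in edgeR, 5 were higher and 3 lower in mutants at an unadjusted p under 0.05 (3.78% of all genes were higher and 3.18% lower), and the median log2 fold change was 0.04, against 0.00 over all genes. Their most abundant members were the surface proteins Ly6e, with 2822 ± 619 reads in controls and 3251 ± 417 in mutants (SD, 12 mice each; edgeR adjusted p = 0.53), and Ly6c1, with 2503 ± 426 and 2874 ± 580 (adjusted p = 0.55). The smallest p in this list, named after its value was seen, belonged to Rsad2, which encodes the antiviral protein viperin: its log2 fold change was 0.49 (SE 0.13, edgeR adjusted p = 0.132), opposite in sign to Ifit3. Of the other class I heavy chain genes, 0 of 11 tested were called, and the most abundant, Fcgrt (the neonatal Fc receptor) and H2-Q4, had log2 fold changes of -0.11 and 0.05. Likewise 0 of 14 peptide loading and processing genes were called (median 0.01), with Canx at -0.07 and Calr at -0.02, both chaperones of the endoplasmic reticulum. Neither Psmb6 (0.05) nor Psmb7 (-0.18) of the constitutive subunits was called, nor were any of the 20 interferon receptor and signalling genes, among which Ifnar1 was at -0.14 and Jak1 at 0.04. All log2 fold changes in these lists are of mutants against controls.

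Transcripts of the interferons themselves were at or near the floor. Of 21 interferon ligand genes, 20 had 0 reads in all 24 libraries, and the remaining one, Ifnk, had 4 reads in 1 control library. A count of 0 in a library allows up to about 3 reads, so that these ligands were not detectable at this depth. Genes that respond to cell isolation (10 genes such as Jun and Egr1) had higher estimates in mutants for 10 of 10, 7 of them at an unadjusted p under 0.05 and 0 after adjustment. Astrocyte, oligodendrocyte and red blood cell markers had lower estimates in mutants for 6 of 6, 6 of 6 and 5 of 5 genes, also with 0 called. In these lists 2, 2 and 3 genes were lower at an unadjusted p under 0.05 in edgeR, against 3.18% of all genes. Their part in the values of the 9 genes was not tested.

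The next comparison asked whether the genes varied with a period of 24 h in either genotype. None of the 9 was called rhythmic in controls or in mutants. By meta2d, which combines the p-values of JTK_CYCLE and Lomb-Scargle, the lowest p among them was 0.41 in controls (Psmb8) and 0.189 in mutants (Tap1), and the q value of each of the 9 genes was 1. At the study's threshold of q under 0.6, meta2d called 48 of 15493 genes in controls (0.31%) and 6 in mutants (0.0387%). At an unadjusted p under 0.05 it gave 377 genes in controls (2.43%) and 351 in mutants (2.27%), and 0 of the 9 genes in either. An edgeR cosinor called 0 of the 9 at q under 0.6, against 0.858% of all genes in controls and 0.194% in mutants. Without the ZT6 and ZT18 libraries it called 2.04% of all genes in controls and 1.94% in mutants, and among the 9 it called Ifit3 in controls (p = 0.00375, q = 0.356).

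The means at each time point show where the spread lay. From ZT2 to ZT22, the pairs of control mice had 281 and 294, 404 and 372, 412 and 265, 181 and 188, 236 and 369, then 251 and 269 reads of Psmb8. Both control mice at ZT14 were thus the lowest of the 12, with a mean of 184.5 reads, and the mean at ZT6 was 2.10-fold that at ZT14. The same 2 time points held the extremes of Tap1 in controls, with means of 309 reads at ZT6 and 120 at ZT14, a ratio of 2.58. Control Ifit3 went from a mean of 589.5 reads at ZT6 to 175.5 at ZT22, a ratio of 3.36, and its fitted cosine had a relative amplitude of 27.2%. In mutants, the highest means of Tap1, Psmb8, Ifit3, Isg15 and B2m were at ZT2. One mouse, the mutant of replicate 1, set these means: it had 418 reads of Tap1, 400 of Psmb8, 466 of Ifit3, 201 of Isg15 and 3574 of B2m, against 232, 257, 234, 113 and 2533 in the other ZT2 mutant. Mutant Ifit3 went from 350 reads at ZT2 to 177 at ZT14, and mutant Tap1 from 325 at ZT2 to 174.5 at ZT18. The highest control mean was at ZT6 for H2-K1, H2-D1, Tap1, Psmb8, Psmb9, Ifit3 and Isg15 and at ZT18 for B2m and Ifit1, the times that make up the library number series of their own.

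**Figure D3:**
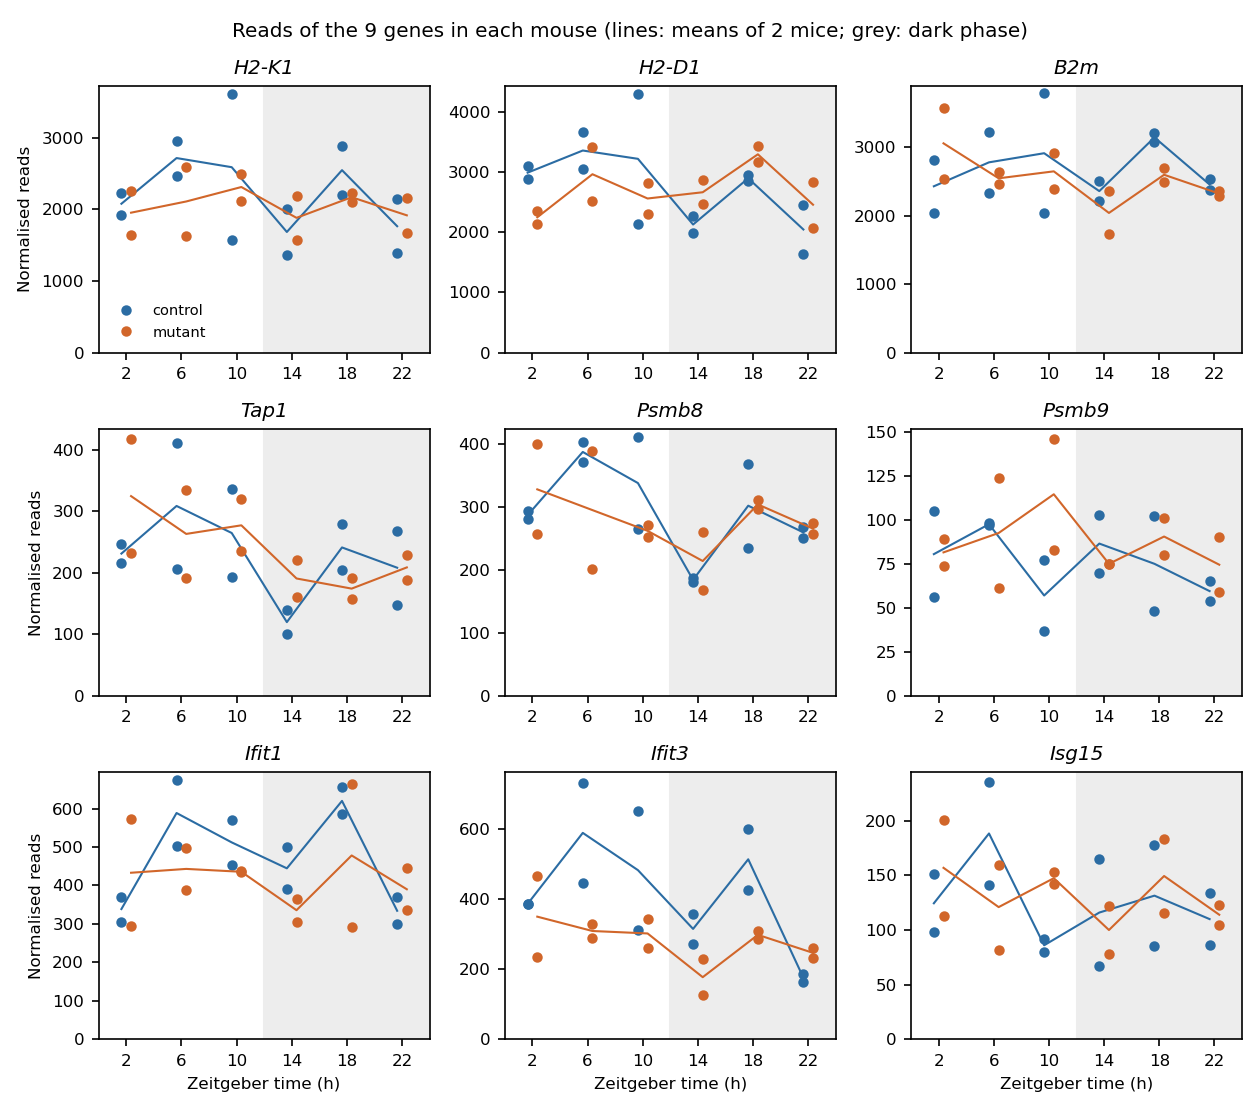
Normalised reads (vertical axis) of the 9 genes against zeitgeber time in hours, with 1 point per mouse, lines through the means of 2 mice and the dark phase in grey. Points of the same time and genotype are often as far apart as the means of different times, and the Ifit3 points of mutants lie below those of controls at ZT6, ZT14 and ZT18 and above them at ZT22.

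Whether the 24-h pattern differed between genotypes was tested as an interaction. The edgeR test called 0 of 15493 genes (a background of 0%; lowest adjusted p 0.141, 660 genes at an unadjusted p under 0.05), and DESeq2 called 1 gene. Among the 9 genes, 0 had an unadjusted p under 0.05. The lowest values were 0.21 for H2-D1, 0.232 for Ifit3, 0.241 for B2m and 0.252 for Ifit1, and the highest was 0.96 for Isg15.

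The libraries of ZT6 and ZT18 were also compared with the rest. By edgeR with genotype as a covariate, all 9 had higher estimates in the 8 ZT6 and ZT18 libraries, with a median log2 difference of 0.27, but 7 of the 9 estimates turned negative when libraries were scaled to 12 endothelial markers, a scaling that moved the median of all genes from -0.01 to -0.38. In the test as planned, 1 of the 9 genes passed as higher (Ifit1), against 5.85% of all genes called higher. At ZT6, Ifit1 had 675 and 502 reads in the control mice and 498 and 388 in the mutants, and at ZT18 it had 585 and 655 in the controls and 293 and 663 in the mutants. The mutant with 293 reads was thus the lowest of all 24 mice, while 3 of the 4 highest mice were controls of these times. The other 16 libraries had 294 to 572 reads (403 ± 90.3, SD), against a mean of 532 ± 139 in the 8. Its log2 difference was 0.39 (SE 0.14, edgeR adjusted p = 0.0484), and over the other settings its adjusted p lay between 0.0105 and 0.963. Leaving out the control ZT10 mouse that stood apart brought the number of genes called to 3. These were H2-K1, H2-D1 and Ifit3 (log2 differences of 0.32, 0.38 and 0.55), and Ifit1 was not among them. Leaving out others brought the number to 0. H2-D1 had a log2 difference of 0.31 (SE 0.11, adjusted p = 0.0515), with 2517 to 3665 reads in the 8 libraries and 1640 to 4299 in the other 16. Ifit3 had a log2 difference of 0.45 (SE 0.19, adjusted p = 0.104), with 286 to 732 reads against 126 to 653. In all 3 genes the ranges of the 2 series overlapped.

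Other genes of the pathway differed between the series too. Among other interferon-stimulated genes, 17 of 56 were called higher and 0 lower, against 5.85% and 10.9% of all genes, with a median log2 difference of 0.28 and with Ly6e at 0.27 and Ly6c1 at 0.33. With scaling to endothelial markers, 62 genes in all were called higher in place of 907. The 12 endothelial markers had a median of 0.36, with 7 called higher, and their sums were 123180 to 130125 reads in the 8 libraries and 80039 to 116218 in the other 16. The 8 pericyte and smooth muscle markers had a median of 0.51, with 7 called higher. Mitochondrial genes took 2.68% to 3.90% of the reads in the 8 libraries and 5.78% to 17.4% in the other 16. The 11 microglial markers were all called lower (median -3.91), and so were 6 of 6 MHC class II genes tested (median -3.09), which are genes of antigen-presenting cells. Astrocyte markers (5 of 6 called lower, median -1.59), oligodendrocyte markers (6 of 6, -1.70), neuronal markers (5 of 6, -2.47) and red blood cell markers (5 of 5, -0.63) were also lower. Genes that respond to cell isolation had a median of 0.64, with 5 of 10 called higher. For the interferon receptor and signalling genes, 7 of 20 were called higher and 2 lower, with Ifnar1 at 0.25 and Jak1 at -0.14. The part of these markers and shares in the differences of the 9 genes was not tested.

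**Figure D4:**
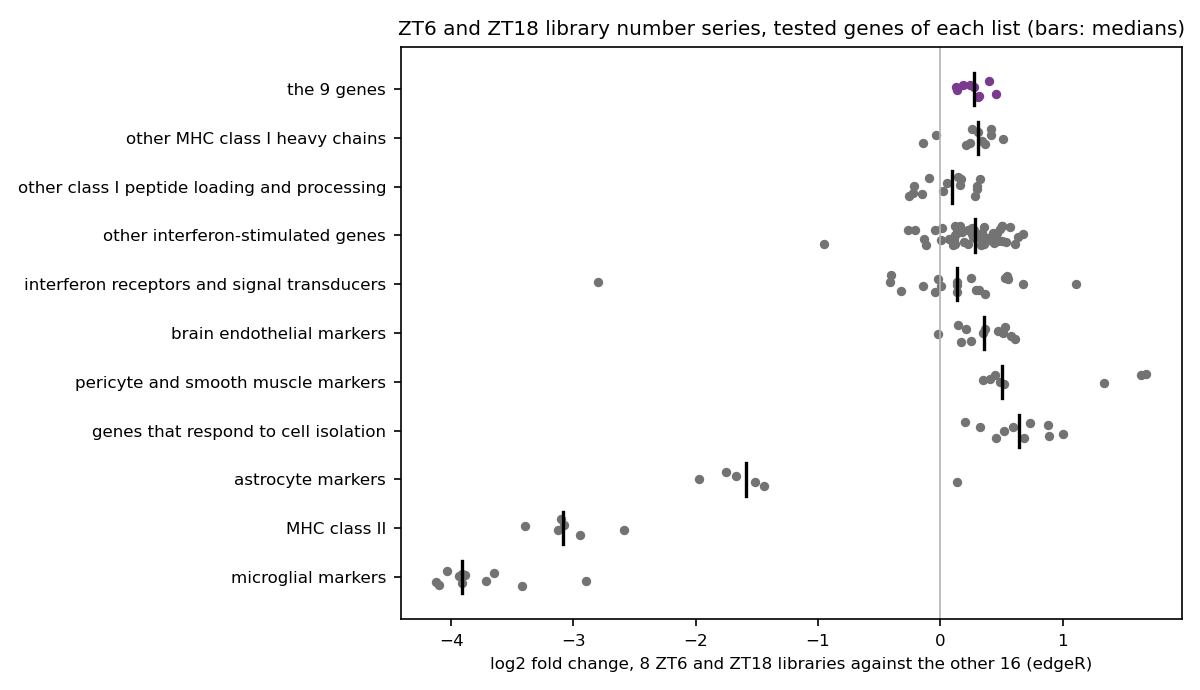
Log2 difference between the 8 ZT6 and ZT18 libraries and the other 16 (edgeR, horizontal axis) for each tested gene of 11 lists, 1 point per gene with bars at the medians. The 9 genes have a median of 0.27, near that of other interferon-stimulated genes (0.28) and endothelial markers (0.36), while microglial (-3.91) and MHC class II genes (-3.09) lie far below 0.

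The last comparison asked whether the genes were high and low in the same mice. Correlations were taken over mice on log2(scaled reads + 1), for 36 pairs, with 100000 permutations of the mice within each number series and adjustment over the pairs. The reads of the 9 genes in the 2 series overlapped, but all 9 had higher estimates in the ZT6 and ZT18 libraries (median log2 difference 0.27). With the 24 mice taken as 1 group, r includes this shift, whose part was not tested. Pearson's r was positive in all 36 pairs, from 0.03 to 0.83 with a median of 0.43, and 14 pairs passed. By Spearman's rho 14 pairs passed as well, 12 of them among those by r. As a description, over all pairs of 12245 genes in the same libraries the median r was -0.0025, and an r of 0.5 or more was found in 2.69% of pairs and in 15 of the 36 pairs of the 9 genes. Outside ZT6 and ZT18 it was found in 3.85% of all pairs and in 13 of the 36. The libraries share their scaling and cell content, and the part of these in the correlations was not tested. In the 16 libraries outside ZT6 and ZT18 the median was 0.40, 3 pairs turned negative and 6 pairs passed (H2-K1 with H2-D1 and B2m, B2m with Psmb8 and Ifit3, and Psmb8 with Tap1 and Ifit3), all among the 14. In the 8 ZT6 and ZT18 libraries the median was 0.43, and 0 passed in an exact permutation test. Of the 14 pairs, B2m with Psmb8 (r = 0.54) turned negative in these 8 libraries (-0.13). Without the control ZT10 mouse, 11 pairs passed, 9 of them among the 14. With the means of genotype and time point removed, the median was 0.49 and 0 pairs passed in an exact test of sign changes.

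The extremes fell on few mice. The control ZT10 mouse that stood apart was the highest of 24 in H2-K1 (3612 reads), H2-D1 (4299), B2m (3787) and Psmb8 (412). The control ZT6 mouse of replicate 1 was the highest in all 3 antiviral genes, with 675 reads of Ifit1, 732 of Ifit3 and 236 of Isg15. At the low end, the mutant ZT14 mouse of replicate 2 was the lowest in B2m (1724), Psmb8 (169) and Ifit3 (126), and the control ZT14 mouse of replicate 1 in H2-K1 (1359) and Tap1 (101). Tap1 was highest in the mutant ZT2 mouse of replicate 1 (418) and Psmb9 in the mutant ZT10 mouse of replicate 1 (146). No single mouse was thus the highest in all 9 genes. The control ZT6 mouse of replicate 1 had the highest mean rank over the 9 genes, 22.7 of 24, against 19.4 in the control ZT10 mouse. Its rank was 18 in Psmb9 and 22 to 24 in the others. The correlations were not recomputed with this ZT6 mouse alone left out.

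The tightest pair was that of the heavy chains. From ZT2 to ZT22, the pairs of control mice had 2234 and 1926, 2963 and 2473, 3612 and 1569, 1359 and 2012, 2207 and 2891, then 2140 and 1392 reads of H2-K1. For H2-D1 the same mice had 3098 and 2885, 3665 and 3054, 4299 and 2144, 1988 and 2271, 2950 and 2846, then 2454 and 1640 reads. Within each pair the mouse with more H2-K1 also had more H2-D1, except at ZT18. H2-K1 and H2-D1 had r = 0.83 (permutation p = 3.00e-05, adjusted p = 0.00108) and rho = 0.80 (permutation p = 0.00012). Their r was 0.86 in the 16 libraries, 0.53 in the 8 libraries, 0.79 without the control ZT10 mouse and 0.74 without the 2 mice farthest from the median of H2-K1. On deviations from group means it was 0.91, where the pair did not pass (exact adjusted p = 0.0879). The heavy chains resemble each other in sequence, and how reads that fit both were counted is not given in the sources used here. H2-K1 also went with the processing genes: r was 0.71 with Psmb8 (rho 0.66) and 0.62 with Tap1 (rho 0.54; permutation adjusted p of r = 0.00324 and 0.00498). Both pairs still passed without the control ZT10 mouse (0.67 and 0.58), and without the 2 mice farthest from the median of H2-K1 their r was 0.72 and 0.54. In the 16 libraries neither passed (0.59 and 0.60, permutation adjusted p = 0.0722 and 0.0667). Tap1 and Psmb8, neighbours on chromosome 17, had r = 0.63 (rho 0.50, permutation adjusted p of r = 0.00324), which was 0.51 without the 2 mice farthest from the median of Tap1. H2-K1 and B2m had r = 0.63 (rho 0.56, permutation adjusted p of r = 0.0118), and r was 0.66 in the 16 libraries (permutation adjusted p = 0.0401). Without the control ZT10 mouse the pair no longer passed (0.53, permutation adjusted p = 0.0719).

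By r over the 24 mice, Psmb9 passed with Isg15 and with no other of the 9 genes, while with H2-K1 (r = 0.43, permutation adjusted p = 0.0665) it passed by rho (0.51, permutation adjusted p = 0.039) and without the control ZT10 mouse (r = 0.51, permutation adjusted p = 0.0392). Psmb9 and Isg15 had r = 0.70 (permutation adjusted p = 0.00198) and rho = 0.76, and r was 0.62 in the 16 libraries and 0.83 in the 8, where it did not pass (permutation adjusted p = 0.0502 and exact adjusted p = 0.085). It was 0.71 without the control ZT10 mouse, where the pair passed, and 0.70 without the 2 mice farthest from the median of Psmb9. With Tap1, which shares its start region, Psmb9 had r = 0.19 (permutation p = 0.372), and with Psmb8, the other immunoproteasome subunit here, r = 0.30 (permutation p = 0.157); whether these coefficients differ from that with Isg15 was not tested. Isg15 also went with Psmb8 at r = 0.56 (permutation adjusted p = 0.0233), 0.29 in the 16 libraries and 0.88 in the 8.

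Ifit1 and Ifit3, which lie near each other on chromosome 19, had r = 0.61 (rho 0.61, permutation adjusted p of r = 0.0136). The pair did not pass in the 16 libraries (0.56, permutation adjusted p = 0.0747), in the 8 (0.46) or on deviations from group means (0.28, exact adjusted p = 0.581). Neither gene passed with Isg15 (0.24 and 0.36, permutation p = 0.303 and 0.0978). Both genes went with B2m instead. Ifit3 with B2m had r = 0.69 (rho 0.56, permutation adjusted p of r = 0.00324), and Ifit1 with B2m had r = 0.55 (rho 0.55, permutation adjusted p of r = 0.021). Both pairs still passed without the control ZT10 mouse (0.63 and 0.60), but in the 16 libraries Ifit1 with B2m did not pass (0.46, permutation adjusted p = 0.161). The pairs of Ifit3 with H2-K1 (0.64), Psmb8 (0.61) and H2-D1 (0.58) passed by r with all mice and not without that mouse. The pair of Ifit3 with H2-D1 did not pass by rho (0.50, permutation adjusted p = 0.109). Across the 3 kinds of pairs, the median r was 0.46 within the 6 class I genes, 0.36 within the 3 antiviral genes and 0.35 between them, and these medians were not compared by a test.

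**Figure D5:**
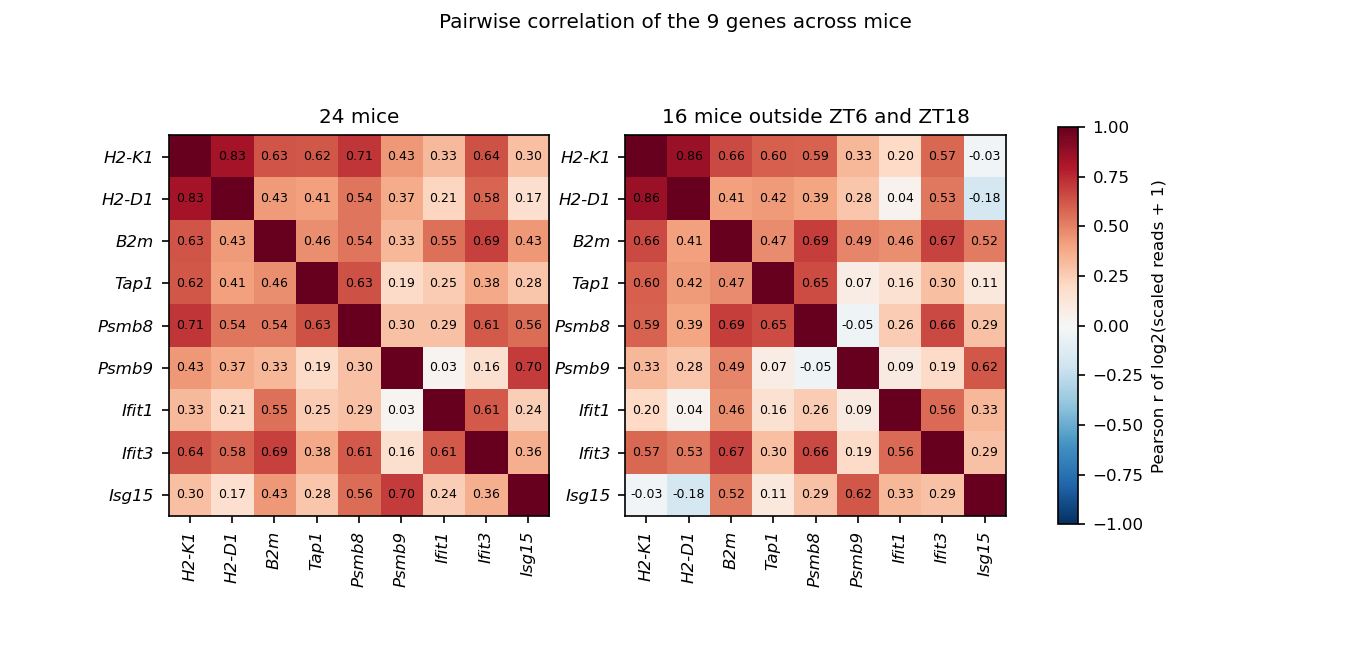
Pearson r of log2(scaled reads + 1) for each pair of the 9 genes, over 24 mice (left) and over the 16 mice outside ZT6 and ZT18 (right), coloured from -1 to 1. H2-K1 with H2-D1 is the highest pair in both (0.83 and 0.86), and Isg15 with the heavy chains falls from 0.30 and 0.17 to -0.03 and -0.18.

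Outside the 9 genes, the nearest patterns over the 24 libraries were sought by Spearman's rho among 12245 genes, as a description of libraries that share their scaling and cell content. H2-K1 was most like H2-Q4 (0.91), Tgtp2 (0.84) and H2-Q7 (0.83), of which the H2-Q genes are class I heavy chains like it and may share reads with it. H2-D1 was most like Ece1 (0.82), Pgm1 (0.80) and H2-Q4 (0.79). B2m was most like Herc6 (0.79), Ell2 (0.79) and Gm4070 (0.75), Tap1 like Tor1aip2 (0.69), Llph (0.67) and Traf2 (0.67), and Psmb8 like Dad1 (0.80), Selenom (0.76) and Snrnp200 (0.75). Psmb9 was most like Tgtp1 (0.72), Echs1 (0.70) and Dnajc27 (0.68), and Isg15 like Tgtp1 (0.77), Cct6a (0.75) and Wtap (0.71). Ifit1 was like Gbp5 (0.83), an interferon-induced GTPase, and Sumo2 (0.76). Ifit3 was most like Ifih1 (0.75), which encodes the RNA sensor MDA5, Selenow (0.75) and Spns2 (0.75). In the 16 libraries outside ZT6 and ZT18, rho was 0.90 for H2-K1 with H2-Q4, 0.83 for Ifit1 with Gbp5 and 0.67 for Isg15 with Tgtp1.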

How the data were processed

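The authors deposited 1 table of read counts per Ensembl gene for 24 mice, as whole numbers. By the study's methods, reads were aligned to GRCm38 with STAR (2.5.3a in the submitters' processing notes), lanes were merged with SAMtools 1.3.1, and PORT brought the libraries to similar totals before counting, so the original depth is not in the values and counting error refers to normalised reads. Groups came from the sample labels. 0 columns of values were left unmapped.

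Counts were analysed with edgeR 4.0.16 in R 4.3.3 (TMM, quasi-likelihood F test, Benjamini-Hochberg over 15493 genes kept where 6 control or 6 mutant libraries held at least 5 reads), with genotype tested beside time point, the number series beside genotype, and the rhythm difference as the interaction of genotype with a 24-h cosine and sine. DESeq2 1.42.0 was an alternative. The JTK_CYCLE and Lomb-Scargle steps of meta2d were rewritten in Python 3.11.15 (NumPy 2.4.6, SciPy 1.17.1, pandas 2.3.3) and tested on simulated data, as were the edgeR tests. Plots used matplotlib 3.10.9. Exon lengths, the union of all annotated exons of a gene, came from GENCODE models of GRCm38 and promoter sequences from RefSeq. The motifs were chosen during the analysis.

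The 9 genes and the gene lists were chosen with earlier results of these data known. Of the other lists the 2 genes with the highest mean reads are named, since none held a called gene between genotypes, and the 3 genes most like each of the 9 (1 of those for Ifit1, and 1 motif searched, are not reported here); Rsad2, Ifit3b, Nr1d1 and the ratios to Psmb5, Psmb10 and Tap2 fall outside this rule. Replicates are separate mice. Alternatives were another tool, scaling and filter, the replicate number as a block, the library's i5 index, subsets of libraries and each mouse left out. Scaling to endothelial markers and leaving the control ZT10 mouse out of the correlations were chosen after seeing the data.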

Additional observations from a re-analysis of the deposited data

Results flagged for a closer look

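Within each genotype, the ZT6 and ZT18 libraries and the others were searched for single mice far from the rest, in 36 groups of 4 or 8 mice; chance flags about 1 in 20 groups. The control ZT10 mouse of replicate 1 was far above the other 7 controls outside ZT6 and ZT18 in H2-K1, with 3612 reads against 2234 in the next, in B2m, with 3787 against 2817, and in Ifit3, with 653 against 387. It is the mouse with the highest sums of MHC class II and of lymphocyte and granulocyte markers. The mutant ZT2 mouse of replicate 1 had 400 reads of Psmb8, against 275 in the next, and the mutant ZT10 mouse of replicate 1 had 146 reads of Psmb9, against 90. In the control ZT6 and ZT18 libraries, B2m was low in the ZT6 mouse of replicate 2, with 2333 reads against 3074 to 3220, and Psmb9 was low in the ZT18 mouse of replicate 1, with 48 against 97 to 102.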

How the results depend on the processing

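Between genotypes, 42 genes were called, against 99 by DESeq2, 141 without a filter on low counts, 7 with the i5 index in the model, 3 in the 8 ZT6 and ZT18 libraries and 25 to 68 with 1 mouse left out; of the 9 genes 1 (Ifit3) was called without the filter and 0 with any mouse left out. The i5 index is partly confounded with genotype. At ZT2 and ZT10 all controls carried 1 index and all mutants the other, so genotype and index cannot be told apart there. At the other times both genotypes shared an index. Scaling to 12 endothelial markers, chosen after seeing the data, called 27. Estimates near 0 turned: Isg15 to -0.015 by endothelial scaling, H2-D1, Tap1 and Isg15 to 0.13, -0.027 and -0.17 with the i5 index, and to 0.025, -0.33 and -0.20 in the 8 libraries. With 1 mouse left out, H2-D1 ranged from -0.074 to 0.058, Tap1 from -0.0023 to 0.17, Psmb8 from -0.12 to 0.0080 and Ifit3 from -0.59 (without the mutant ZT2 mouse of replicate 1) to -0.41. Likewise Ifit1 ranged from -0.24 to -0.077, Psmb9 from 0.12 to 0.29 and Isg15 from 0.0022 to 0.19. H2-K1 ranged from -0.15 to -0.015 and B2m from -0.14 to -0.024. The rhythm difference went from 0 to 1 gene by DESeq2, 1 by endothelial scaling, 1 with the i5 index, 52 without a filter, 5 in the 16 libraries outside ZT6 and ZT18 and 0 to 1 with 1 mouse left out, with 0 of the 9 genes in any of these.

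The replicate numbers did not pair the mice (correlations of deviations -0.009 to 0.015 across genes), and with a replicate block Ifit3 stayed at -0.48 between genotypes (edgeR adjusted p = 0.276). For the library number series, the replicate block called 2 of the 9 genes in place of 1, as did DESeq2, library totals only and no filter (2 each). filterByExpr, endothelial scaling, controls only and mutants only called 0 each, and leaving out 1 mouse called 0 to 3. Over all genes 2595 were called in the main test, 4860 with endothelial scaling, 1064 in controls, 1535 in mutants and 2352 to 2714 with 1 mouse left out. Endothelial scaling turned H2-K1 to -0.16, H2-D1 to -0.071, B2m to -0.26, Tap1 to -0.26, Psmb8 to -0.13, Psmb9 to -0.21 and Isg15 to -0.087, and Tap1 was also -0.16 in mutants only and -0.025 to 0.22 with 1 mouse left out (lowest without the control ZT6 mouse of replicate 1).

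meta2d called 48 genes in controls and 6 in mutants. With tied time points kept tied it called 0 and 0. The edgeR cosinor called 133 and 30, without ZT6 and ZT18 316 and 301 (1 of the 9 genes, Ifit3 in controls), and with a replicate block 103 and 23. In mutants TMM rescaling gave 24 and a filter at 10 or more reads 43. Leaving out 1 mouse gave 0 to 57 in controls and 0 to 10 in mutants, with 0 of the 9 genes.

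Of 36 correlations 14 passed, against 6 in the 16 libraries, 0 in the 8 and 0 on deviations from group means, and 11 without the control ZT10 mouse. Some pairs turned sign, among them B2m with Psmb8, which had passed. On deposited reads Psmb9 with Ifit1 was -0.00019. On deviations H2-K1, H2-D1 and Psmb9 with Ifit1 were -0.045, -0.15 and -0.14. In the 16 libraries Isg15 with H2-K1 and H2-D1 was -0.025 and -0.18, and Psmb8 with Psmb9 was -0.046. In the 8 libraries H2-D1 with B2m and Ifit1 was -0.069 and -0.30, B2m with Psmb8 and Psmb9 -0.13 and -0.39, Ifit1 with Psmb8, Psmb9 and Isg15 -0.056, -0.39 and -0.16, and Psmb9 with Ifit3 -0.21. The cause was not tested for any of these. Psmb9, with 37 to 146 reads, is limited most by depth.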
